A study of Mus musculus with 8 samples.

Results

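The genes described here are the translation initiation factors, whose symbols begin with Eif, and the cytosolic aminoacyl-tRNA synthetases. They were chosen by symbol from the array annotation, leaving out the eIF2 kinases, which gave 66 of the 19087 genes measured: 46 initiation factor genes, 1 pseudogene (Eif2s3x-ps1) and 19 synthetases. The study profiled messenger RNA of B splenocytes (splenic B cells) on 1-color Agilent mouse arrays. Lymphoma cells came from 4 mice labelled c-myc/Cdk4(R24C), which combine c-myc with a Cdk4 form that INK4 inhibitors do not restrain, and controls came from 4 wild type mice. All 8 mice are labelled C57BL/6. No label states which promoter drives c-myc, nor the age or sex of the mice. The comparison asks how RNA levels differ between lymphoma and wild type B splenocytes, in a model made to resemble blastoid mantle cell lymphoma.

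Translation of most messenger RNAs begins when eIF4E binds the cap and, with the scaffold eIF4G and the helicase eIF4A, recruits a small ribosomal subunit that carries eIF3 and the eIF2 complex with the initiator tRNA. Synthetases load each tRNA with its amino acid. MYC is known as an activator of several of these genes through the E-box CACGTG, and ATF4, the factor of the amino acid response, is known to act on synthetase genes.

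Each mouse gave 1 array, so n = 4 per group, and values are log2 intensities scaled to a common 75th percentile per array. Replicates 1 and 2 of both groups shared slide 1, and replicates 3 and 4 shared slide 2. Wild type 1 was the highest control in 36 of the 66 members (54.5%, against 26.3% of all genes), and results are also given without it. That share compares unlike sets, because many of all genes lie under the background bound and few members do. Wild type 1 was singled out after its values were seen, so higher differences and more calls among the members without it follow in part from the choice and are given as description. Wild type 2 lay the other way. Relative to each gene's mean over the 8 arrays, the members' median was 0.37 on wild type 1 and -0.35 on wild type 2. Without wild type 2 the only member called was Eif4e3. The B cell markers Cd79a, Cd79b, Ms4a1, Pax5, Cd22 and Blk lay above the background bound on all arrays, and 0 of the 6 passed the test (limma, adjusted p under 0.05), while 1 had an unadjusted p under 0.05. That one was Cd22, which differed by -1.03 ± 0.27 without overlap (adjusted p 0.0854), and Pax5 differed by -0.60 ± 0.36. Their summed level was 16.49 to 17.21 in wild type and 16.81 to 17.31 in lymphoma, but it is carried by Cd79b and Ms4a1, which were near the scanner ceiling on 7 and 5 arrays, which limits what the sum can show. Among 5 macrophage and monocyte markers 4 fell, with a summed level of 14.86 to 15.52 in wild type and 13.60 to 14.10 in lymphoma. Among 6 granulocyte markers 1 fell, S100a8, and the summed level was 12.82 to 14.15 against 10.72 to 12.37. Of 7 T cell markers 5 had a difference below 0 (median -0.29), among them Cd3g at -0.84, Thy1 at -0.82 and Lat at -0.81, and 1, Cd2, rose by 1.89 (adjusted p 0.044). The sum, which includes Cd2, was 12.52 to 14.02 in wild type and 13.59 to 14.37 in lymphoma. Cd2 was the brightest of the 7 on every array, which limits what the sum can show for the others. The 4 erythroid markers summed to 11.31 to 14.10 and 10.76 to 12.22. The part of these markers in the results below was not tested. In such preparations fewer cells of a type and less RNA per cell cannot be told apart.

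Promoters are shown for members whose factors sit at the cap or carry several E-boxes, because MYC is the introduced oncogene of this model, and for 1 synthetase with both motifs searched. The RefSeq promoter table (GRCm38.p6) held 47 of the 66 members. It covers 250 bases before to 50 after each gene's start, and the 250 bases before the start are printed 5′ to 3′ on the gene's strand, with motif matches in capitals. The letters CACGTG, which read the same on both strands, mark E-boxes, and the letters TGATGNAA on either strand mark the element bound by ATF4 dimers. The motifs do not overlap each other in these windows. Eif4e, which encodes the cap-binding protein, held E-boxes that begin 228 and 64 bases before the start of the second of its 2 listed promoters. Eif4a1, encoding the helicase, held 1 at 189 bases. Eif5a2 held them at 142 and 117 bases. Aars, the alanine synthetase, held an E-box at 146 bases and an ATF4 element at 112 bases, with another match 10 bases after the start.
Eif4e (chr3:138527018-138527267, + strand): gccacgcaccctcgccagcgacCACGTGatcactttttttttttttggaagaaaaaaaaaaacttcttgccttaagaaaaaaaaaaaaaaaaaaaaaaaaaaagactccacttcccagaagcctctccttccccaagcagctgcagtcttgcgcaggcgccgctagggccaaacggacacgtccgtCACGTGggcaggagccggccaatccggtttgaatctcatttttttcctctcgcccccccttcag
Eif4a1 (chr11:69672424-69672673, - strand): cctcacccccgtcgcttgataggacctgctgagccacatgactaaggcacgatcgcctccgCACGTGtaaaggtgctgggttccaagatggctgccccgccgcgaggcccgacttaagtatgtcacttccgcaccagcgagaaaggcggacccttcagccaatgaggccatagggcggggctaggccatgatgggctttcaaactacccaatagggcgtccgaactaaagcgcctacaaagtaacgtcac
Eif5a2 (chr3:28781027-28781276, + strand): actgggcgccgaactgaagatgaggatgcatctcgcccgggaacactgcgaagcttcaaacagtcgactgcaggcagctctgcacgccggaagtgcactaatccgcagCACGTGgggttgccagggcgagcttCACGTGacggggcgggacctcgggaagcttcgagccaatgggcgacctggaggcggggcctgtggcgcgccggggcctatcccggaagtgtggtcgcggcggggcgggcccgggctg
Aars (chr8:111033592-111033841, + strand): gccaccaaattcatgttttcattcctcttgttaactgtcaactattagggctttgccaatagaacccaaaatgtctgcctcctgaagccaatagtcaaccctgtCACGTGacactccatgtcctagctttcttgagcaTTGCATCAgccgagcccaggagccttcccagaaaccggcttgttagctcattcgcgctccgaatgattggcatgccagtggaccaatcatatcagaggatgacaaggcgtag

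An E-box was found in the promoter windows of 13 of the 47 members (27.7%), 9 of 35 initiation members and 4 of 12 synthetases, and in 8.09% of the 27025 genes of the table. The ATF4 element was found in 5 of 12 synthetases (41.7%), namely Aars, Gars, Iars, Tars and Yars, in 1 of 35 initiation members (2.86%), and in 4.51% of all genes. Eif3a held its E-box 23 bases after the start. A match is a description of the letters in this window and does not show binding. The shares over all genes count every gene of the promoter table, whether or not these cells express it. No comparison with promoters of like base content was made, so the shares cannot show whether an excess is particular to the members. Of the 4 genes printed none passed the test in lymphoma against wild type: the differences were -0.05 for Eif4e, 0.56 for Eif4a1, 1.31 for Eif5a2 and -0.05 for Aars, with adjusted p between 0.454 and 0.969 in limma.

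Of the 66 members 1 rose in lymphoma, Eif3a, the largest subunit of eIF3, and 1 fell, Eif4e3, a relative of the cap-binding protein eIF4E. Across all genes 0.817% rose and 1.27% fell in limma, 2.09% in all, so that the members' count lay near the background. Those shares are 156 genes higher and 242 lower, and with the values as deposited the split was 116 higher and 301 lower. At an unadjusted p under 0.05 there were 10 members, 9 higher and 1 lower, against 15.9% of all genes, 8.19% higher and 7.73% lower. The difference was above 0 for 48 of the 66 members (72.7%) and for 56.7% of all genes, and its median was 0.23 in the members and 0.06 over all genes. All 8 arrays were under the background bound for 5870 of the 19087 genes and for 0 of the members. The members are thus brighter than the set of all genes, and no comparison at like brightness was made. With quantile normalization the median of the members was 0.26 and that of all genes -0.01. The groups did not overlap for 6 members, as for 9.99% of all genes. Lymphoma was higher in Eif3a, Eif5b, Eif3k and Eif2s3x, where 4.43% of all genes had this pattern, and lower in Eif4e3 and Eif4a2, where 5.55% of all genes had it. Without wild type 1, 8 members were called higher (Mars1, Eif1a, Eif3i, Eif4b, Eif3a, Cars, Hars and Eif5b) and 1 lower (Eif4e3). In that fit 8.15% of all genes were called, 4.28% higher and 3.87% lower.

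**Figure D1:**
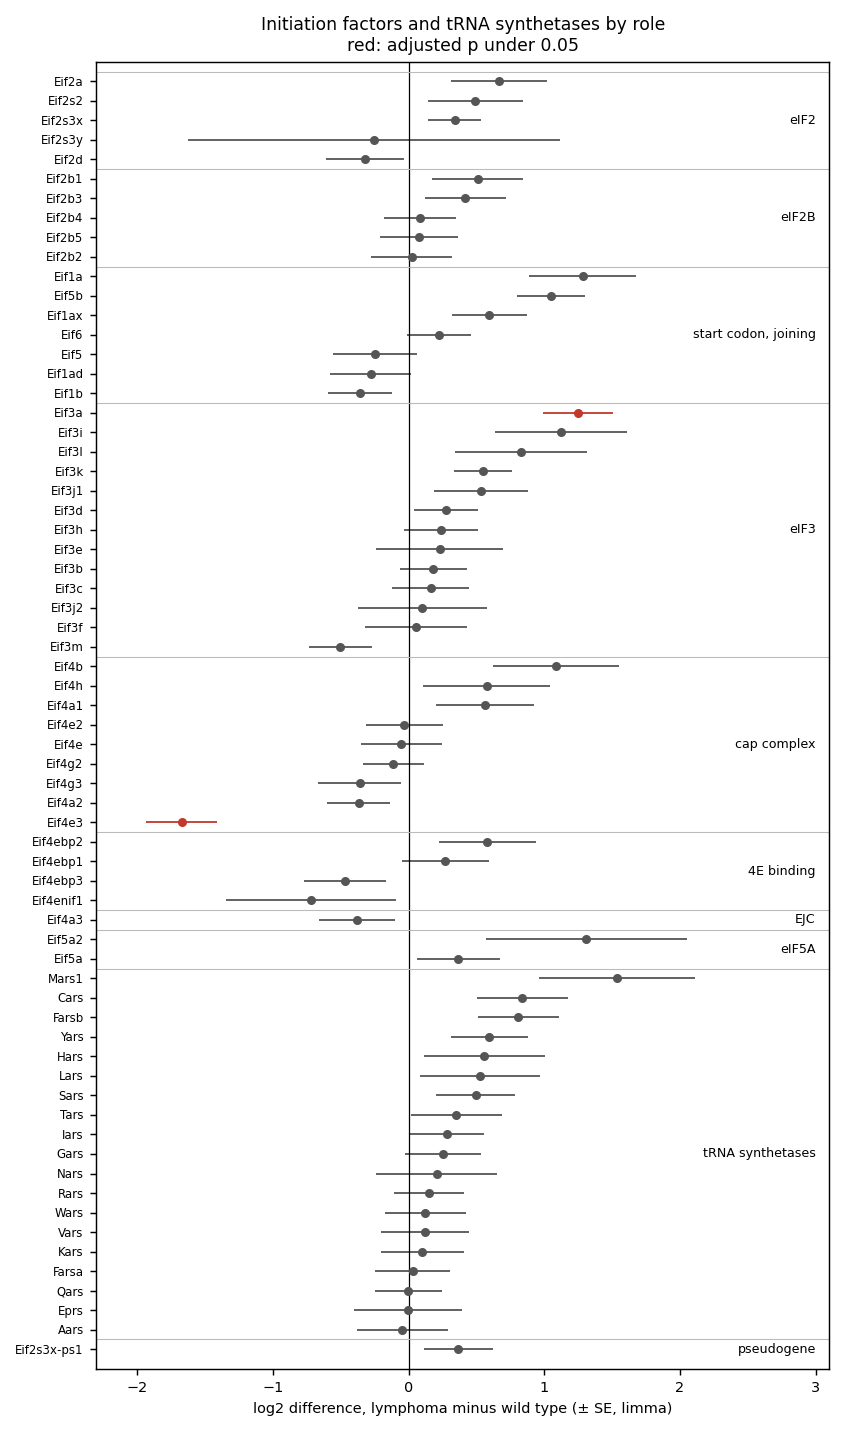
Log2 difference of lymphoma minus wild type (± SE, limma, n = 4 per group) for the 66 members in blocks by role. Eif3a at 1.25 and Eif4e3 at -1.67 are the 2 members past an adjusted p of 0.05 (red), and most other points lie between 0 and 1.

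The eIF3 complex holds the small ribosomal subunit ready for scanning. Of its 13 genes analysed here 1 rose and 0 fell, with 12 differences above 0 and a median of 0.24. The 13 include both Eif3j1 and Eif3j2, and the subunit gene Eif3g is not among them. The Eif3a feature read 11.67, 11.34, 11.18 and 11.68 in wild type 1 to 4 and 12.30, 12.40, 13.21 and 12.95 in lymphoma 1 to 4. Every lymphoma value lay above every control value. The group means were 11.47 ± 0.25 and 12.72 ± 0.44 (SD, n = 4), a 2.37-fold higher level in lymphoma (log2 difference 1.25 ± 0.26 SE, adjusted p 0.037 in limma). Eif3a had 3 features, and the other 2 differed by -0.05 and -0.46 (adjusted p 0.965 and 0.357). The feature at -0.46 was under the background bound on 7 arrays, so it says little. The rise therefore stands on the brightest feature alone. On the second feature wild type read 11.33, 12.08, 12.40 and 11.80 and lymphoma 11.07, 11.93, 12.37 and 12.04, so the groups overlapped throughout. In wild type 2, 3 and 4 this second feature was the brighter one. The chosen feature ranks first through its lymphoma values, so its choice is not independent of the rise. With the mean of its 3 features Eif3a differed by 0.25 (adjusted p 0.547), and its call also ended with the values as deposited (adjusted p 0.0541) and when any array other than wild type 1 was left out (adjusted p 0.0611 to 0.129).

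Eif3i, a WD-repeat subunit that binds eIF3b and eIF3g, read 13.64, 10.83, 12.06 and 12.57 in wild type and 13.99, 13.53, 13.03 and 13.02 in lymphoma. Wild type 1 lay among the lymphomas and wild type 2 far below them, for a difference of 1.12 ± 0.49 (adjusted p 0.313). Eif3k, a subunit of the octamer that forms the core of mammalian eIF3, was 10.47 to 10.60 in wild type and 10.74 to 11.51 in lymphoma, a difference of 0.55 ± 0.22 (adjusted p 0.264). Eif3m, also of that octamer, had the lowest difference of the complex. It read 14.20, 14.61, 14.12 and 13.84 in wild type and 13.96, 13.43, 13.81 and 13.56 in lymphoma, a difference of -0.50 ± 0.23 with an adjusted p of 0.35. Eif3h, another octamer subunit, was near the scanner ceiling on 3 arrays and Eif3l on 1, which can hide part of a difference. Eif3j1 and Eif3j2 are near-identical copies, and their features may read both.

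Within eIF3 the lymphomas split by slide for 2 further subunits. Eif3e read 12.52 and 12.32 in lymphoma 1 and 2 but 14.28 and 14.23 in lymphoma 3 and 4, with wild type at 13.14, 13.90, 12.80 and 12.60. Its difference was -1.10 within slide 1 and 1.55 within slide 2. Eif3l read 14.34 and 14.42 in lymphoma 1 and 2 and 15.76 and 15.60 in lymphoma 3 and 4, with wild type at 15.63, 13.97, 13.93 and 13.27. Slide and mouse cannot be told apart for such a split. The second Eif3e feature read 12.13, 12.99, 12.67 and 12.76 in lymphoma 1 to 4 and did not show it.

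**Figure D2:**
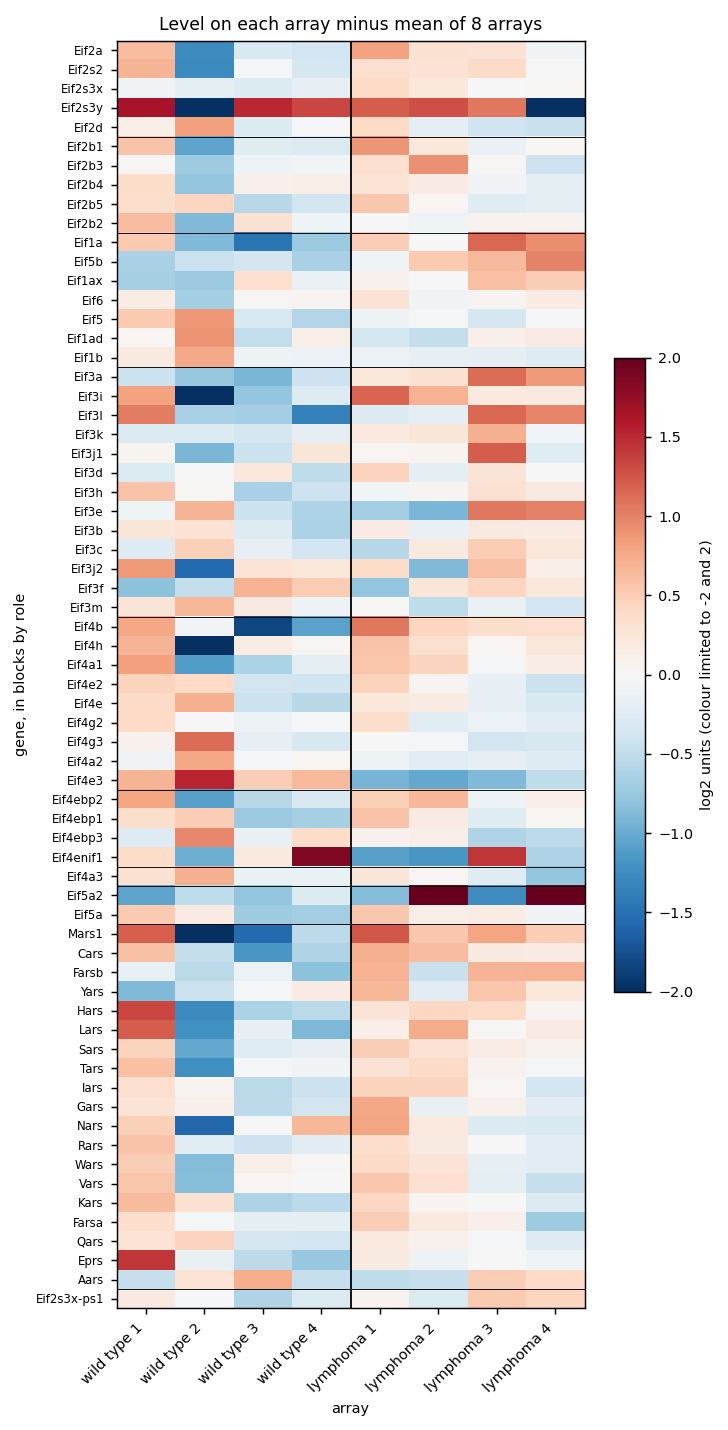
Level of each member on each array minus its mean over the 8 arrays (log2 units, color limited to -2 and 2), in blocks by role. Wild type 1 is high and wild type 2 low in many synthetases, Eif4e3 separates the groups, and Eif5a2 is high in lymphoma 2 and 4.

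The cap complex gave the fall. Of its 9 genes 0 rose and 1 fell, 3 differences were above 0 and the median was -0.05. Eif4e3 encodes a divergent member of the eIF4E family that binds the cap and is known, in human and mouse cells, to compete with eIF4E. It read 9.75, 10.60, 9.56 and 9.72 in wild type 1 to 4 and 8.14, 8.05, 8.19 and 8.56 in lymphoma 1 to 4. The groups lay a whole log2 unit apart at their closest values. The means of 9.91 ± 0.47 and 8.24 ± 0.22 (SD, n = 4) gave a 3.19-fold lower level in lymphoma (log2 difference -1.67 ± 0.26 SE, adjusted p 0.0134 in limma). The call was kept whichever single array was left out, with adjusted p between 0.0044 and 0.0479, and within slide 2 alone (-1.27, adjusted p 0.0414). Within slide 1 alone the difference was -2.08 (adjusted p 0.708). The dimmer feature of the gene differed by -0.41 ± 0.25 (adjusted p 0.49), and the mean of both features by -1.04 (adjusted p 0.0276). The macrophage and granulocyte sums given above were lower in lymphoma in the same direction, and their part in the level of Eif4e3 was not tested.

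Eif4e itself, the main cap-binding protein, read 11.88, 12.20, 11.07 and 10.94 in wild type and 11.70, 11.66, 11.33 and 11.19 in lymphoma. The values followed the slide more than the group, and the difference was -0.05 ± 0.30 with a 95% interval of -0.71 to 0.60 (adjusted p 0.959). Its second feature differed by 0.27 ± 0.23. Eif4e2, the third family member measured, differed by -0.03, with an interval of -0.65 to 0.59. These arrays could not resolve differences inside those intervals.

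Among the other cap factors Eif4b, which stimulates the helicase, had the highest difference. It read 13.34, 12.51, 10.75 and 11.49 in wild type and 13.61, 12.99, 12.92 and 12.89 in lymphoma. The controls of slide 1 lay near the lymphomas and those of slide 2 well below them. The difference was 1.08 ± 0.46 (adjusted p 0.306), and 1.52 without wild type 1 (adjusted p 0.0336). Eif4a1 read 14.94, 12.99, 13.48 and 13.93 in wild type and 14.67, 14.55, 14.09 and 14.26 in lymphoma, a difference of 0.56 ± 0.36 (adjusted p 0.513). Its paralog Eif4a2 read 15.26, 16.11, 15.31 and 15.37 in wild type and 15.23, 15.11, 15.16 and 15.08 in lymphoma. The lymphomas lay just below the controls, by 0.37 ± 0.23 on average (adjusted p 0.504), and the feature was near the ceiling on 2 arrays. Eif4a3, the helicase of the exon junction complex, read 11.76, 12.17, 11.33 and 11.33 in wild type and 11.70, 11.49, 11.22 and 10.69 in lymphoma, with overlapping groups and a difference of -0.38 ± 0.28 (adjusted p 0.578).

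The eIF4E binding proteins hold eIF4E away from eIF4G until mTORC1 phosphorylates them, and of 4 genes in this role 0 passed in limma, also at an unadjusted p under 0.05. Eif4ebp1 read 12.90, 13.04, 11.82 and 11.88 in wild type and 13.12, 12.71, 12.30 and 12.59 in lymphoma, a difference of 0.27 ± 0.32 (adjusted p 0.746). Eif4ebp2 read 11.94, 10.07, 10.60 and 10.85 in wild type and 11.63, 11.82, 11.06 and 11.29 in lymphoma (0.58 ± 0.36, adjusted p 0.491), and Eif4ebp3 read 11.58, 12.80, 11.68 and 12.20 against 11.91, 11.94, 11.24 and 11.30 (-0.47 ± 0.30, adjusted p 0.516). All 3 had overlapping groups. Eif4enif1, which carries eIF4E into the nucleus, varied most among single mice. It read 11.27, 9.93, 11.11 and 12.76 in wild type and 9.82, 9.75, 12.33 and 10.29 in lymphoma, a difference of -0.72 ± 0.63 (adjusted p 0.649).

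**Figure D3:**
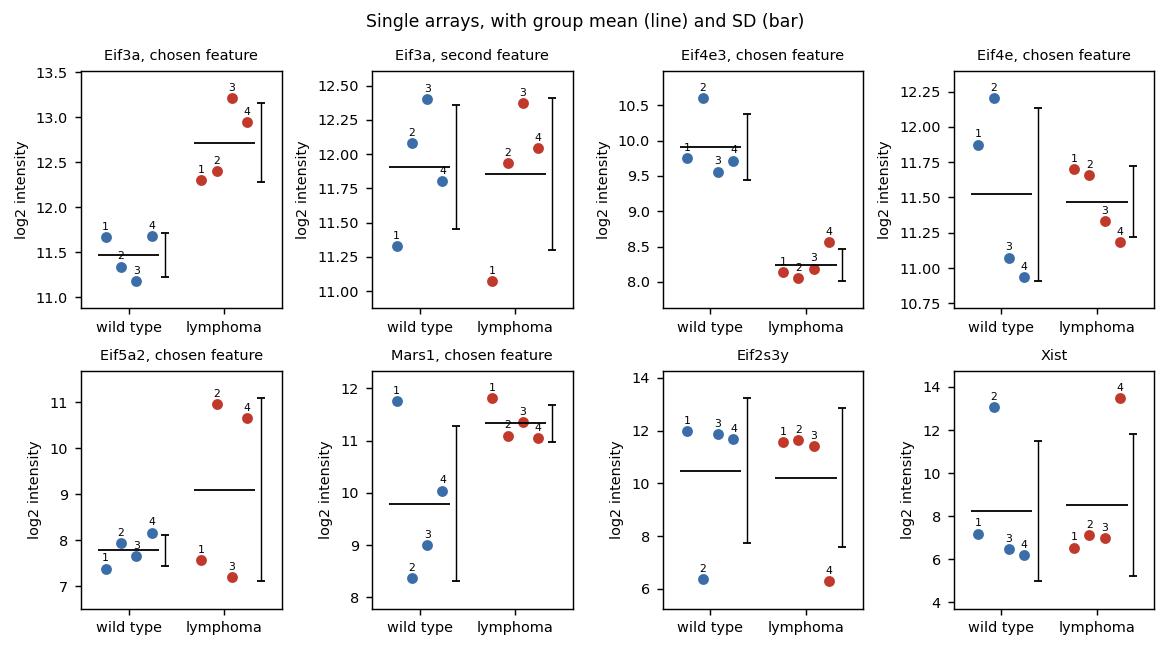
Log2 intensity on each array for Eif3a (chosen and second feature), Eif4e3, Eif4e, Eif5a2, Mars1, Eif2s3y and Xist, with the array's number, the group mean (line) and SD (bar). The chosen Eif3a feature and Eif4e3 separate the groups, the second Eif3a feature does not, and Eif2s3y and Xist mirror each other on wild type 2 and lymphoma 4.

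The ternary complex of eIF2 brings the initiator tRNA, and eIF2B recharges it with GTP. Of 5 genes listed under eIF2 and 5 under eIF2B 0 passed in limma, also at an unadjusted p under 0.05. Eif2a and Eif2d are listed under eIF2 but are not among its subunits. The differences ran from -0.32 for Eif2d to 0.67 for Eif2a, noncanonical initiator tRNA factors, and from 0.02 for Eif2b2 to 0.51 for Eif2b1, 2 subunits of the regulatory part of eIF2B. Eif2d had a difference of -0.32 ± 0.29 (adjusted p 0.657), Eif2a of 0.67 ± 0.35 (adjusted p 0.418) and Eif2b1 of 0.51 ± 0.34 (adjusted p 0.529). Eif2b3 was under the background bound on 4 arrays.

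The gamma subunit of eIF2 has an X-linked gene, Eif2s3x, and a Y-linked one, Eif2s3y. Eif2s3y read 12.00, 6.36, 11.86 and 11.69 in wild type 1 to 4 and 11.56, 11.64, 11.40 and 6.29 in lymphoma 1 to 4. It was under the background bound on wild type 2 and lymphoma 4 and high on the other 6 arrays. Xist, the RNA of the inactive X chromosome, read 13.07 and 13.47 on those 2 arrays and 6.19 to 7.19 on the others. Kdm5d, also Y-linked, was lowest on the same 2 arrays. Each group therefore held 1 array with this pattern, and the group difference of Eif2s3y was -0.26 ± 1.37 (adjusted p 0.956). The Eif2s3x feature read 11.76, 11.65, 11.55 and 11.67 in wild type and 12.23, 12.06, 11.83 and 11.87 in lymphoma, without overlap and with a difference of 0.34 ± 0.20 (adjusted p 0.466). Of its 3 other features the brightest had its 2 lowest values, 10.64 and 9.95, on wild type 2 and lymphoma 4 and 11.74 to 12.50 elsewhere. Eif2s3x and Eif2s3y are near-identical copies, so which of them that feature reads is uncertain.

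Among 7 factors of start codon choice and subunit joining, 0 passed in limma and 2 were higher at an unadjusted p under 0.05. Eif5b, the GTPase that joins the ribosomal subunits, was 12.43 to 12.72 in wild type and 13.02 to 14.08 in lymphoma, without overlap. It differed by 1.05 ± 0.25 (adjusted p 0.0611, or 0.0484 with wild type 1 left out), while its 4 other features differed by -0.07 to 0.94. Eif1a, which helps scanning, read 11.92, 10.51, 9.93 and 10.66 in wild type and 11.89, 11.39, 12.53 and 12.33 in lymphoma, with wild type 1 among the lymphomas. Its difference was 1.28 ± 0.40 (adjusted p 0.145), and its second feature gave 1.65 ± 0.40 (adjusted p 0.0642). Without wild type 1 both features passed, at adjusted p 0.00842 and 4.45e-04. Eif1a and its X-linked copy Eif1ax may share signal, and Eif1ax differed by 0.59 ± 0.28. Eif1b had the lowest value of this role, -0.36 ± 0.24 (adjusted p 0.521).

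The eIF5A proteins carry hypusine, an amino acid made from spermidine, and ease elongation at stalled ribosomes. Eif5a read 14.33, 13.98, 13.10 and 13.12 in wild type and 14.36, 13.93, 13.97 and 13.74 in lymphoma, a difference of 0.37 ± 0.30 (adjusted p 0.625). Its dimmer feature read 11.08, 10.45, 11.04 and 10.93 in wild type and 11.92, 11.51, 12.44 and 12.09 in lymphoma. There the groups did not overlap, and it differed by 1.12 ± 0.25 (adjusted p 0.051). Eif5a2, a second isoform gene that is amplified in some human cancers, read 7.39, 7.93, 7.65 and 8.17 in wild type and 7.57, 10.96, 7.20 and 10.65 in lymphoma. Lymphoma 2 and 4 stood about 3 log2 units above the other lymphomas and all controls, and the groups differed by 1.31 ± 0.74 (adjusted p 0.454). The 2 high arrays lie on different slides. The other Eif5a2 feature read 7.77 and 7.76 on those arrays and did not show the split. On every control it was brighter than the chosen feature, which ranks first through lymphoma 2 and 4.

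Of the 19 synthetases 0 passed in limma, 3 were higher at an unadjusted p under 0.05 (Mars1, Cars and Farsb), and 16 had a difference above 0, with a median of 0.26. Over all genes 8.19% were higher at an unadjusted p under 0.05 and 56.7% had a difference above 0, with a median of 0.06. The count of synthetases above 0 was 15 with the values as deposited. It was 18 with scaling to the median and with quantile normalization. The spread of the synthetases among controls was wide. Wild type 1 was the highest control in 14 of the 19 and lay above the lymphoma mean in 16, against 26.3% and 49.9% of all genes. Wild type 2 was the lowest control in 8 of the 19 (42.1%), against 26.8% of all genes. Relative to each gene's mean over the 8 arrays, the median of the synthetases was 0.50 on wild type 1, -0.48 on wild type 2, -0.24 and -0.38 on wild type 3 and 4, and 0.45, 0.20, 0.07 and -0.08 on lymphoma 1 to 4. Over all genes these medians lay between -0.13 and 0.09.

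Mars1, which loads methionine onto both initiator and elongator tRNA, had the highest difference of all members. It read 11.76, 8.36, 8.998 and 10.04 in wild type and 11.81, 11.10, 11.35 and 11.06 in lymphoma. Wild type 1 lay with the lymphomas and the other controls below them. The difference was 1.54 ± 0.57 (adjusted p 0.235) and became 2.19 (adjusted p 0.00468) once wild type 1 was left out, while the second Mars1 feature differed by 0.08. Hars, the histidine enzyme, read 13.45, 10.84, 11.48 and 11.58 in wild type and 12.17 to 12.53 in lymphoma. Wild type 1 lay above all lymphomas and the other controls below them. Its difference went from 0.56 (adjusted p 0.61) to 1.10 (adjusted p 0.0215) without wild type 1. The second Hars feature went the other way, at -0.51 ± 0.21 (adjusted p 0.277, and 0.124 without wild type 1). Cars, the cysteine enzyme, went from 0.84 (adjusted p 0.271) to 1.17 (adjusted p 0.0197). Its other features differed by -0.38 and -0.09 (adjusted p 0.623 and 0.931, and 0.664 and 0.944 without wild type 1). On wild type 2, 3 and 4 the first of these was brighter than the chosen Cars feature, which ranks first through its lymphoma values. Farsb, the beta subunit of the phenylalanine enzyme, differed by 0.81 ± 0.30 (adjusted p 0.231) and its partner Farsa by 0.03.

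Eprs, the fused glutamate and proline enzyme, read 13.44, 11.86, 11.49 and 11.25 in wild type and 12.18, 11.91, 12.01 and 11.93 in lymphoma. The control values lay on both sides of the lymphomas, and the difference was -0.004 ± 0.40 (adjusted p 0.998). Qars, the glutamine enzyme, and Aars were at -0.001 and -0.05, the latter the lowest synthetase value (± 0.34, adjusted p 0.969). Dars was not analysed here.

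The slides gave unlike values for single members. Within slide 1 the difference was above 0 for 39 members and within slide 2 for 47, and for 30 in both. Over all 19087 genes these counts were 10907, 9706 and 6374. The members' medians were 0.26 and 0.31, against 0.10 and 0.01 over all genes. Within slide 1 limma called 0 members, with 4 at an unadjusted p under 0.05. It called 0 of all 19087 genes there, with 1090 at an unadjusted p under 0.05. Within slide 2 it called 7 members: Eif1a, Eif3a, Eif3e, Eif3l, Eif4b and Eif5b higher and Eif4e3 lower. Within slide 2 it called 6.75% of all genes, 3.47% higher and 3.28% lower. A term for the difference between slides, added after the data were seen, passed for 0 of the 66 members, with 9 (13.6%) at an unadjusted p under 0.05. Over all genes it passed for 0, with 7.68% at an unadjusted p under 0.05. For Eif3e that term was 2.65 ± 0.44 (adjusted p 0.254).

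**Figure D4:**
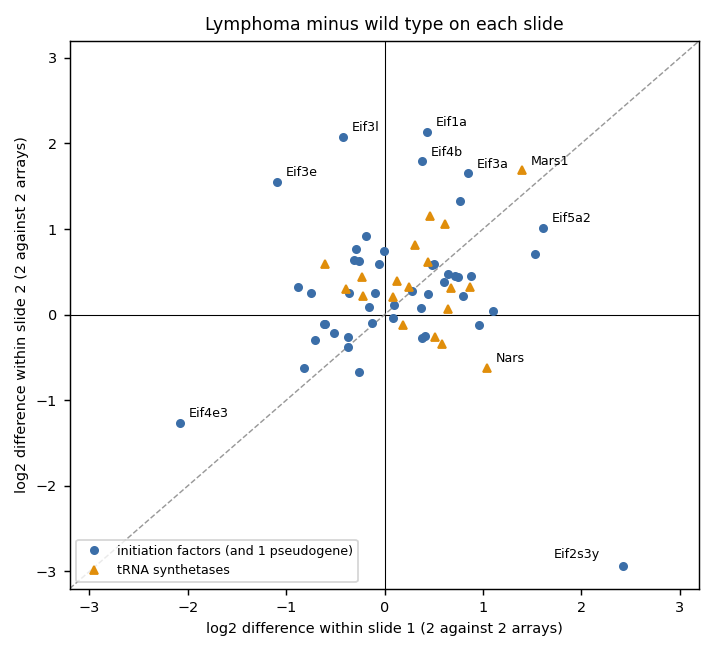
Log2 difference of lymphoma minus wild type within slide 1 (x axis) and slide 2 (y axis), 2 arrays per group on each slide, for the 66 members. Eif4e3 is low on both slides, Eif3e lies at -1.10 and 1.55, and Eif2s3y at 2.42 and -2.93.

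Other genes of the translation machinery gave no call. Of 61 such genes in chosen lists 0 passed in limma, 9 passed an unadjusted p of 0.05, and 42 had a difference above 0, with a median of 0.21. Over all genes 15.9% passed an unadjusted p of 0.05 and 56.7% had a difference above 0, with a median of 0.06. Without wild type 1, 8 of the 61 were called higher and 1 lower, against 4.28% and 3.87% of all genes. Some array was near the ceiling for 8 of the 61, and no comparison at like brightness was made for them. Gspt1, the release factor eRF3a, had the highest difference at 1.53 ± 0.52 (adjusted p 0.191), and 2.17 without wild type 1 (adjusted p 7.13e-04). Mcts2 was the lowest of the same termination and recycling list, at -0.85 ± 0.53 (adjusted p 0.498). Ppp1r15a, which directs a phosphatase to eIF2 and was the lowest of the 61, differed by -0.86 ± 0.21 (adjusted p 0.0668, and 0.0198 without wild type 1), and Eif2ak4, the kinase that senses uncharged tRNA, by 0.44 ± 0.31. Of 16 mitochondrial synthetases Rars2 differed by 0.97 ± 0.49 and Lars2 by -0.29 ± 0.56. Lars2 was near the ceiling on 4 arrays, and lymphoma 1 read 13.04 against 15.60 to 16.07 on the other lymphomas. Among 6 mitochondrial initiation and elongation genes Tsfm was at 0.79 ± 0.33 and Gfm2 at -0.43 ± 0.27. Among 9 elongation genes Dohh, which completes hypusine, was at 0.87 ± 0.35 and Dhps, which starts it, at -0.15 ± 0.29. Larp1, a regulator of messenger RNAs for ribosomal proteins, was at 1.04 ± 0.46 and Paip2b at -0.43 ± 0.23 among 14 cap control and mTORC1 genes. The synthetase complex scaffolds Eef1e1 and Aimp1 were at 0.96 ± 0.50 and -0.11 ± 0.26. Adjusted p values of these 10 genes were between 0.27 and 0.894.

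Of 18 genes of the ATF4 response 1 rose, Phgdh, the entry enzyme of serine synthesis, and 0 fell, with a median of -0.03. Across all genes 0.817% rose and 1.27% fell. Phgdh differed by 1.57 ± 0.25 (adjusted p 0.0149). At an unadjusted p under 0.05 in limma there were 3 of the 18 higher and 5 lower, against 8.19% and 7.73% of all genes. The highest difference was that of Atf3, a stress-induced factor, at 2.06 ± 0.47 (adjusted p 0.0523), and Asns, the asparagine synthetase, differed by 1.16 (adjusted p 0.0993). The 5 lower genes were Ddit3 (-1.21, adjusted p 0.0777), Chac1 (-1.07), Nupr1 (-0.96, adjusted p 0.0646), Sesn2 (-0.86) and Slc3a2 (-0.45), with Nupr1 under the background bound on 4 arrays and Chac1 on 3. Atf4 itself differed by 0.03. The synthetases with an ATF4 element in the window differed by -0.05 (Aars), 0.26 (Gars), 0.28 (Iars), 0.35 (Tars) and 0.60 (Yars).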

How the data were processed

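The authors deposited log2 intensities for 45220 features on 8 arrays, 1 per mouse, labelled with Cy3 from 0.5 µg of RNA per the labels. The scanner, background correction and normalization are not stated in the labels or table header, and no background or saturation flags come with the table. Arrays were scaled to a common 75th percentile, taken over the 33709 features with a listed gene. Of these features 33653 had 1 symbol, and of several features of a gene the brightest on average over the 8 arrays was used. Both groups enter that average, so a feature can be chosen through the group in which it is high. Eif3a, Cars and Eif5a2 are examples. The limma package (version 3.58.1, R 4.3.3; lmFit, eBayes, group as the only term, two-sided) was run on all 33709 features with Benjamini-Hochberg adjustment over them. A call is an adjusted p under 0.05. P values set the group difference against the spread between these arrays.

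The background bound of an array is the 95th percentile of its 1110 olfactory and vomeronasal receptor features (7.17 to 7.45), and the ceiling is 80% of its highest intensity. The members, gene lists and named genes were chosen with earlier results of these data known. Named are the called members, the 6 highest and 6 lowest differences, a fixed set (Eif4e, Eif4a1, Eif4g1, Eif4ebp1, Eif4ebp2, Eif2s1, Eif2s3x, Eif2s3y, Eif5a and Eprs) and the extremes of each role. Eif2s1, Eif3g, Eif4g1 and Dars were not analysed here. Genes described for a split between arrays or features, or for the fit without wild type 1, and the marker and ATF4 genes named, were chosen after their values were seen. Same-numbered arrays of the groups do not share a label that pairs them, and their deviations from the group means correlated between -0.04 and 0.19. Those of differently numbered arrays correlated between -0.16 and 0.09. The highest correlations were those of replicates 1 (0.19) and 3 (0.14).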

Additional observations from a re-analysis of the deposited data

Results flagged for a closer look

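Of 40 groups of 4 arrays examined for the 20 named members, 4 held an array far from the other 3, where chance gives about 1 in 20. Eif2s3y was at 6.36 on wild type 2, against 11.69 to 12.00 on the other controls. It was at 6.29 on lymphoma 4, against 11.40 to 11.64 on the other lymphomas. Eif4b was at 13.61 on lymphoma 1, against 12.89 to 12.99 on the others. Eif4a2 was at 16.11 on wild type 2, against 15.26 to 15.37, where the feature is near the ceiling.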

How the results depend on the processing

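The count of 2 called members held at 2 with scaling to the median, quantile normalization, the brightest feature away from the ceiling, the dimmer 50% of features left out, a floor, a trend with robust settings and the slide as a block. It was 1, Eif4e3, with the values as deposited, with the mean of all features and with the replicate block, 6 with array weights, 0 within slide 1 and 7 within slide 2. Leaving out single arrays gave 1 to 9 members, 9 without wild type 1 and 1 without any other. The replicate block moved Eif3a to an adjusted p of 0.051, and the values as deposited to 0.0541. The 61 other translation genes held 0 calls, but 1 as deposited and 1 with the mean of all features (Ppp1r15a in each), 6 with array weights, 4 within slide 2 and 0 to 9 leaving out single arrays. All genes gave 398 calls, 1441 with array weights, 0 within slide 1, 1288 within slide 2 and 74 to 1556 leaving out single arrays. As deposited, 116 genes were higher and 301 lower, against 156 and 242.

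Among the 20 named members the sign changed for 5, none of them called: Eif4e, Eprs, Eif2s3y, Eif4ebp1 and Eif5a. Leaving out single arrays gave -0.25 to 0.17 for Eif4e, -0.26 to 0.47 for Eprs and -1.63 to 1.06 for Eif2s3y. Eif4e was 0.11 with the mean of its features, 0.28 with array weights, 0.25 within slide 2, and 0.07, 0.17 and 0.04 without wild type 1, wild type 2 or lymphoma 4. Eprs was 0.0049 with scaling to the median, 0.0256 with quantile normalization, 0.17 with the mean of its features, 0.34 with array weights, 0.60 within slide 2, and 0.47, 0.03 and 0.02 without wild type 1, lymphoma 2 or lymphoma 4. Eif2s3y was 2.42 within slide 1, and 0.25, 0.21, 0.15 and 1.06 without wild type 1, 3 or 4 or lymphoma 4. Within slide 1 Eif4ebp1 was -0.0519 and Eif5a -0.0086. The cause of these moves was not tested. Precision is limited by 4 arrays per group, by features of a gene that disagree, and by a scanner ceiling that 3 members neared.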

Other observations

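Among the 74 features of the members that were not chosen to stand for their gene, 44 (59.5%) had the direction of the chosen feature. Of all 140 features of the members 2 were called, the chosen ones of Eif3a and Eif4e3. The third Eif4a1 feature read 7.97, 8.61, 8.07 and 8.41 in wild type and 7.56 and 7.35 in lymphoma 1 and 2, but 10.52 and 10.65 in lymphoma 3 and 4. One Eif4e2 feature read 11.20 on lymphoma 3 and 8.39 to 9.34 on the other 7 arrays. Larp1 read 11.36 and 11.60 in lymphoma 1 and 2 and 13.38 and 13.41 in lymphoma 3 and 4, with wild type between 10.83 and 11.68.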
